A study of Rattus norvegicus with 97 samples.

Results

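Oxidative phosphorylation genes encode the machinery with which mitochondria turn the electrons of NADH and succinate into ATP. The genes described here were all those whose probe set carried 1 symbol in the platform annotation and whose symbol was that of a nuclear subunit family of the respiratory chain or the ATP synthase (Nduf followed by a, b, c, s or v, Sdha to Sdhd, Uqcr, Cox4 to Cox8, and Atp5). The rule found 86 genes among the 14217 genes with 1 symbol, and each was represented by its probe set with the highest mean over all arrays. Of these 86 genes, 34 encode subunits of complex I, 4 of complex II, 7 of complex III, 16 of complex IV and 15 of complex V. A further 6 encode assembly factors of complex I (Ndufaf genes), which the rule takes in by name, and 4 belong to no complex in the strict sense: the supercomplex factor Cox7a2l, the ATP synthase inhibitor Atp5if1, the Ndufa4 relative Ndufa4l2 and the pseudogene Cox6c-ps1. Ndufa4 was counted with complex IV, of which it is now held to be a subunit.

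Complex I (NADH dehydrogenase) and complex II (succinate dehydrogenase) pass electrons to ubiquinone, complex III passes them to cytochrome c, and complex IV (cytochrome c oxidase) passes them to oxygen. Complexes I, III and IV pump protons, and complex V (ATP synthase) uses the resulting gradient to make ATP. In brain most of this ATP serves ion pumping after synaptic and spike activity, so neurons that fire fast, such as parvalbumin interneurons, are known to be rich in mitochondria. The nuclear factors NRF1 and GABP bind the promoters of many of these genes, and the PGC-1 coactivators Ppargc1a and Ppargc1b act with them.

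RNA of the nucleus accumbens shell, the reward-related ventral part of the striatum, came from 97 rats, with 1 array per rat. The rats belonged to 5 pairs of lines, each selected for high (P, HAD1, HAD2, AA, sP) or low (NP, LAD1, LAD2, ANA, sNP) alcohol intake. Each line had 10 rats except LAD1, sP and sNP, which had 9. The labels give no sex, age, treatment or alcohol exposure, and every line pair is 1 selection experiment, so that a line difference describes these lines. All differences are log2 values of the line bred for high minus the line bred for low intake, given ± their standard error, and a gene was called at an adjusted p under 0.05 in a limma fit over 31042 probe sets.

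Some arrays did not lie with their own line, and this bears on the differences of every pair but HAD2/LAD2, which had no such array. On the 50 probe sets that best parted the other animals of its pair, an array scores 0 at the median of the line bred for low and 1 at that of the line bred for high intake. 8 arrays lay further than 0.3 from the end of their label. HAD1 28 (0.00493), AA 19 (-0.039), LAD1 37 (0.988), ANA 20 (0.93) and NP 9 (1.05) lay near the other line, and P 9 (0.463), sP 4 (0.399) and sNP 4 (0.483) lay between the lines. Counts and named differences are therefore given with all arrays and, where they change, without these 8. Array medians ran from 7.82 to 8.02. The 14 measured markers of medium spiny neurons, the main cells of this region, had line means of 11.42 in sP to 12.47 in ANA, but single P animals ranged from 9.49 to 13.14. The choroid plexus markers stayed between 5.23 and 7.55 in all animals.

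The promoters of 3 genes whose line differences are described below are shown because NRF1 and GABP sites are the textbook link between these genes. Each is the 250 bases before the annotated start in RefSeq (build GRCr8), written 5′ to 3′ on the gene's strand, and capitals mark a match to the NRF1 core CGCATGCG, which reads the same on both strands, or to the GABP core CCGGAAGT or its reverse complement ACTTCCGG.
Ndufaf4 (chr5:43401545-43401794, plus strand): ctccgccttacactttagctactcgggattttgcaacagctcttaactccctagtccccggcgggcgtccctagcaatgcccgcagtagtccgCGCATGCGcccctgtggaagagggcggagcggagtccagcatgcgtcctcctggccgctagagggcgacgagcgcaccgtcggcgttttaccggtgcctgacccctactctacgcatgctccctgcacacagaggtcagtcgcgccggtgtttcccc
Uqcrc1 (chr8:118467973-118468222, plus strand): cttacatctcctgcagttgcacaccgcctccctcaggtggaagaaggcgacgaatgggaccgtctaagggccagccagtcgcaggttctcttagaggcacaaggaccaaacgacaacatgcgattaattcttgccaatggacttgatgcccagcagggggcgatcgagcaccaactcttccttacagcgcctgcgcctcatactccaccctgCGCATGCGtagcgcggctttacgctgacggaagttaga
Uqcrfs1 (chr17:34186352-34186601, plus strand): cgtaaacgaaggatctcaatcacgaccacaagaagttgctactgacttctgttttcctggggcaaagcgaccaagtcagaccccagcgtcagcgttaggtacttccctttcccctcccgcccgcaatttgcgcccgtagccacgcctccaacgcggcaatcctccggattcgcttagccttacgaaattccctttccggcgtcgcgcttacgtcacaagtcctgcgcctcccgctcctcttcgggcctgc
The NRF1 core stood 157 bases before the start of Ndufaf4 and 38 bases before that of Uqcrc1, and Uqcrfs1 held neither core in this window. RefSeq held a promoter for 78 of the 86 genes. The NRF1 core was in 8 of the 78 (10.3%) and in 1.47% of all 33469 promoters of the table. The GABP core was also in 8 of the 78 (10.3%), against 3.1% of all promoters. The 8 genes with the NRF1 core were Atp5me, Atp5mg, Atp5pf, Atp5po, Ndufa11, Ndufaf4, Ndufaf5 and Uqcrc1, and those with the GABP core were Atp5f1a, Cox5b, Cox8a, Ndufa13, Ndufb7, Ndufs1, Uqcrh and Uqcrq, so that no promoter held both.

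Within pairs the genes of oxidative phosphorylation differed little. The share called among the 86 genes was 1.16% in P/NP (1 gene, against 1.05% of all probe sets), 0 of 86 in HAD1/LAD1 (1.2%), 1.16% in HAD2/LAD2 (1 gene, against 4.6%), 0 of 86 in AA/ANA (2.35%) and 4.65% in sP/sNP (4 genes, against 12.9%). At an unadjusted p under 0.05 the limma fits gave 3 of 86 genes in P/NP (3.49%, against 7.63% of all probe sets), 6 in HAD1/LAD1 (6.98%, against 9.89%), 9 in HAD2/LAD2 (10.5%, against 14%), 5 in AA/ANA (5.81%, against 9.74%) and 30 in sP/sNP (34.9%, against 30.3%). Among all genes with 1 symbol the unadjusted shares were 7.43%, 9.19%, 14.6%, 9.28% and 35.3%, in the same order. The called shares among all genes with 1 symbol were 0.935%, 0.95%, 4.47%, 1.84% and 15.1%. Without the departing arrays 1 gene was called in P/NP (beside 661 of all 31042 probe sets), 1 in HAD1/LAD1 (3.98% of all probe sets), 0 in AA/ANA (4.44%) and 6 in sP/sNP (15%), and HAD2/LAD2 had no such array. The 95% interval of the difference lay wholly within 0.32 log2 units of 0 for 82 of 86 genes in P/NP, 78 in HAD1/LAD1, 81 in HAD2/LAD2, 82 in AA/ANA and 73 in sP/sNP. Over all genes with 1 symbol that share was 77.7%, 85.9%, 82.3%, 82.2% and 72.1%, in the same order, against 95.3%, 90.7%, 94.2%, 95.3% and 84.9% for the 86. Their SD between animals of a line was also small, with a median of 0.127 against 0.167 over all probe sets, and ran from 0.0677 for Atp5mk to 0.30 for the muscle isoform Cox7a1. The median level of the subunits was 12.25 (complex I) to 13.09 (complex V), against 7.92 over probe sets. Neither the intervals nor the SD were compared with genes of like level.

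Small shifts ran the same way over most members in every pair but HAD2/LAD2. There 44.2% of the members were higher in HAD2, beside 45.6% of all genes with 1 symbol. The median difference of the 86 genes was 0.022 in P/NP, -0.045 in HAD1/LAD1, -0.012 in HAD2/LAD2, 0.038 in AA/ANA and 0.086 in sP/sNP, while the median of all genes with 1 symbol lay between -0.009 and 0.008. The high-intake line had the higher value for 63, 22, 38, 66 and 66 of the 86 genes in these pairs, so that HAD1/LAD1 ran opposite to P/NP, AA/ANA and sP/sNP. These genes vary together between animals, so their number adds no independent evidence, and no test was made on the medians. Without the departing arrays the medians were 0.023, -0.027, -0.012, 0.021 and 0.098. The HAD2/LAD2 median turned to 0.011 without HAD2 5 and to 0.003 without LAD2 16, and that of sP/sNP turned to -0.018 with a marker index of cell types, described below, as a covariate. With the Gapdh 3′ to 5′ difference of each array, also described below, as a covariate, the HAD1/LAD1 median was only -0.008. Those of P/NP, HAD2/LAD2, AA/ANA and sP/sNP were then 0.015, -0.017, 0.037 and 0.071.

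**Figure D1:**
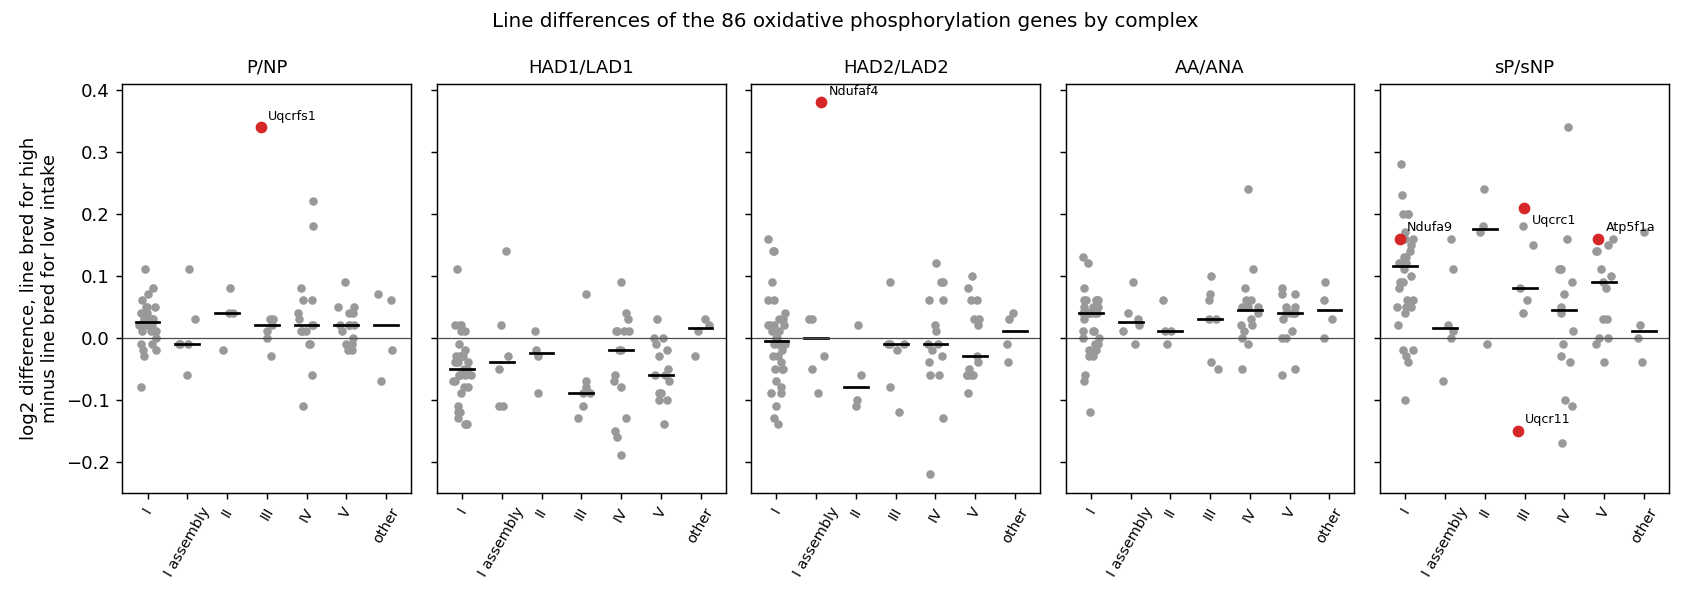
Log2 difference of each of the 86 genes (points) in each line pair (panels), grouped by complex, with black bars at the group medians and red points for genes called at an adjusted p under 0.05. Most points lie close to 0, Uqcrfs1 (0.34) and Ndufaf4 (0.38) stand apart in P/NP and HAD2/LAD2, and sP/sNP shows most points above 0.

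Complex I, the NADH dehydrogenase with its matrix arm of redox centres and its membrane arm of proton pumps, had no called subunit among 34 in P/NP, HAD1/LAD1, HAD2/LAD2 and AA/ANA, where 1, 0, 2 and 3 subunits had an unadjusted p under 0.05. In sP/sNP 1 of 34 was called. A probe set left out of the 34, because it names Ndufa10 together with Ndufa10l1, was called higher in HAD2 (0.87 ± 0.124) and in sP (0.53 ± 0.0522), as given under the other observations. The median difference of the 34 subunits was 0.025 in P/NP, -0.046 in HAD1/LAD1, -0.004 in HAD2/LAD2, 0.039 in AA/ANA and 0.115 in sP/sNP. The mean of the 34 in each animal spanned 12.61 to 12.86 in P and 12.57 to 12.81 in NP, 11.33 to 11.61 in HAD1 and 11.31 to 11.65 in LAD1, and 11.37 to 11.70 in HAD2 and 11.44 to 11.71 in LAD2. It spanned 12.62 to 12.77 in AA and 12.57 to 12.73 in ANA, and 12.60 to 12.92 in sP and 12.52 to 12.84 in sNP. The lines of every pair therefore overlapped.

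The called complex I subunit was Ndufa9, an accessory subunit where the matrix arm meets the membrane arm. Its values were 12.13, 12.26 and 12.43 (lowest, median, highest) in sP and 11.98, 12.08 and 12.27 in sNP. The sP animals were the higher on average, with overlap, by 0.16 ± 0.0518 (1.12-fold, adjusted p = 0.0443). Ndufa9 differed by -0.09 ± 0.0393 in HAD2/LAD2 (adjusted p = 0.31) and by 0.03 or less in size in the other pairs. Ndufa5, an accessory subunit of the matrix arm, had the highest average difference of complex I over the 5 pairs (0.09 ± 0.0319, adjusted p = 0.0867), was higher in the high-intake line of all 5, and was not called in sP/sNP with all arrays (0.28 ± 0.0938, adjusted p = 0.0568) but was without the departing arrays (0.31, adjusted p = 0.0427), as in 5 of 12 settings in all. Ndufs7, a core iron-sulfur subunit next to the ubiquinone site, differed there by 0.20 ± 0.0677 (adjusted p = 0.0528) and was called without the departing arrays (0.23, adjusted p = 0.0374), and also in 5 of 12 settings in all.

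Other complex I subunits had the smallest p of their pair without being called. Ndufb1 of the membrane arm differed by 0.11 ± 0.0411 in P/NP (adjusted p = 0.395). Ndufs4 of the matrix arm differed by -0.14 ± 0.0741 in HAD1/LAD1 (adjusted p = 0.578). Ndufv1, the flavoprotein that accepts electrons from NADH, differed by -0.14 ± 0.0606 in HAD2/LAD2 (adjusted p = 0.277), and Ndufa3 of the membrane arm by 0.13 ± 0.0447 in AA/ANA (adjusted p = 0.202).

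Ndufa12, an accessory subunit of the matrix arm, was lower on average over the 5 pairs, by -0.09 ± 0.0256 (adjusted p = 0.0228, limma fit over all 97 arrays, where 3.37% of all probe sets were called), and was the only one of the 86 genes lower in the high-intake line of all 5 pairs. The differences were -0.08 ± 0.0565 in P/NP, -0.03 ± 0.0456 in HAD1/LAD1, -0.13 ± 0.0705 in HAD2/LAD2, -0.12 ± 0.0432 in AA/ANA and -0.10 ± 0.0695 in sP/sNP, none called by itself. Its median was 12.92 in P and 12.96 in NP, 12.12 in HAD1 and 12.15 in LAD1, 12.05 in HAD2 and 12.21 in LAD2, 12.81 in AA and 12.96 in ANA, and 12.93 in sP and 12.98 in sNP. The lines of each pair overlapped. The call was kept in all 97 fits that left out 1 array each (highest adjusted p 0.0353), but not after a further quantile normalisation or with the 5 line differences as the replicates, where its adjusted p was 0.948. Without the departing arrays Ndufa12 and Cox6c kept their calls on average and Ndufaf4 and Uqcrfs1 were called too, 4 of the 86 genes against 4.94% of all probe sets.

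Of the complex I assembly factors, which build the complex without staying in it, only Ndufaf4 was called, in HAD2/LAD2. Its values were 11.34, 11.59 and 11.78 (lowest, median, highest) in HAD2 and 10.86, 11.24 and 11.41 in LAD2. HAD2 animals were the higher, with a narrow overlap, by 0.38 ± 0.0676 (1.3-fold, adjusted p = 0.000821). The call was kept in all 20 fits that left out 1 array and under all 10 other settings (0.33 to 0.41, highest adjusted p 0.00213). The difference was 0.14 ± 0.0615 in HAD1/LAD1 (adjusted p = 0.414, and 0.19 with adjusted p = 0.0619 without the departing arrays), -0.01 ± 0.0952 in P/NP, 0.09 ± 0.0774 in AA/ANA and -0.07 ± 0.0574 in sP/sNP. The differences were unequal between pairs (interaction adjusted p = 0.0072). RefSeq names 5 pseudogenes of Ndufaf4, whose transcripts the probe set might also bind. In the same pair markers of oligodendrocytes were lower in HAD2 (5 of 7 called, median -0.306, animals 11.16 to 11.53 against 11.41 to 12.11 in LAD2). Of the endothelial markers 3 of 6, and of the microglial markers 2 of 8, were called lower, where 4.6% of all probe sets were called. The part of these markers in the Ndufaf4 difference was not tested. In such tissue RNA fewer cells of a type and less RNA per cell cannot be told apart.

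The other 5 assembly factors had no call in any pair. Ndufaf5, which modifies a core subunit, had the smallest p among them in sP/sNP (0.11 ± 0.0461, adjusted p = 0.0991), Ndufaf1 in P/NP (0.11, adjusted p = 0.872). Ndufaf8 had the lowest average difference (-0.02 ± 0.0215, adjusted p = 0.813).

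Complex II, the succinate dehydrogenase that also serves the tricarboxylic acid cycle, had no called subunit in any of the 5 pairs with all arrays or without the departing arrays. An unadjusted p under 0.05 was reached by 0 of 4 subunits in P/NP, HAD1/LAD1 and AA/ANA, 2 in HAD2/LAD2 and 3 in sP/sNP. In sP/sNP the iron-sulfur subunit Sdhb differed by 0.24 ± 0.0851 (adjusted p = 0.0666), the membrane anchor Sdhc by 0.18 ± 0.0773 (adjusted p = 0.123) and the flavoprotein Sdha by 0.17 ± 0.0690 (adjusted p = 0.0998), whereas the anchor Sdhd differed by -0.01 ± 0.0356. Sdhb ran from 12.90 to 13.42 in sP and from 12.60 to 13.13 in sNP, with overlap. Over the 12 settings in this pair Sdhb was called in 3 and Sdha in 1. Sdha had the highest average difference of the complex (0.05 ± 0.0253, adjusted p = 0.421) and Sdhd the lowest (-0.01 ± 0.0186, adjusted p = 0.909).

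Complex III, which passes electrons from ubiquinol to cytochrome c, held the call in P/NP. Uqcrfs1 encodes the Rieske iron-sulfur protein, whose moving head carries the electron to cytochrome c1. Its values were 12.54, 12.72 and 12.96 (lowest, median, highest) in P and 12.14, 12.42 and 12.69 in NP. P animals were the higher, with overlap, by 0.34 ± 0.0716 (adjusted p = 0.0192), and by 0.38 ± 0.0719 (adjusted p = 0.00466) without P 9 and NP 9. The call was kept in all 20 fits that left out 1 array (highest adjusted p 0.0436) and under 9 of 11 other settings. It was lost with the animal number as a replicate block (adjusted p = 0.0764) and with the Gapdh 3′ to 5′ difference of each array, a measure of RNA integrity and labelling, as a covariate (adjusted p = 0.0741). The Gapdh difference was 0.11 ± 0.0318 (SD, n = 10) in P and 0.14 ± 0.0636 (SD, n = 10) in NP. In the same pair 0 of 8 microglial markers had a positive difference (1 of 8 called, median -0.3, animals 9.61 to 10.17 in P against 9.89 to 10.34 in NP). Without P 9 and NP 9, 4 of 8 were called lower in P (median -0.373), and their part in the Uqcrfs1 difference was not tested.

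Uqcrfs1 did not move alike elsewhere. It differed by 0.07 ± 0.087 in HAD1/LAD1, -0.08 ± 0.0598 in HAD2/LAD2, -0.05 ± 0.0497 in AA/ANA and 0.18 ± 0.0699 in sP/sNP (adjusted p = 0.0815), and the 5 differences were unequal (interaction adjusted p = 0.00276). Its medians were 11.67 in HAD1 and in LAD1, 11.45 in HAD2 and 11.52 in LAD2, 12.64 in AA and 12.71 in ANA, and 12.88 in sP and 12.65 in sNP. In P/NP the other 6 subunits of complex III lay between -0.03 and 0.03, and none was called.

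Both other calls of complex III were in sP/sNP and ran in opposite directions. Uqcrc1, a core protein of the matrix side, was 13.10, 13.31 and 13.49 (lowest, median, highest) in sP and 12.88, 13.08 and 13.31 in sNP, and was higher in sP by 0.21 ± 0.0674 (1.16-fold, adjusted p = 0.0476). Uqcr11, a small membrane subunit, was 13.67, 13.81 and 13.92 in sP and 13.76, 13.95 and 14.03 in sNP, and was lower in sP by -0.15 ± 0.0478 (1.11-fold, adjusted p = 0.0478). The lines overlapped for both genes. Uqcrc1 differed by -0.12 ± 0.0589 in HAD2/LAD2 (adjusted p = 0.35) and Uqcr11 by 0.09 ± 0.0646 there. The other core protein, Uqcrc2, had the lowest average difference of the complex (-0.02 ± 0.0198, adjusted p = 0.728). Uqcr10 had the smallest p in AA/ANA (0.10 ± 0.038, adjusted p = 0.27).

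**Figure D2:**
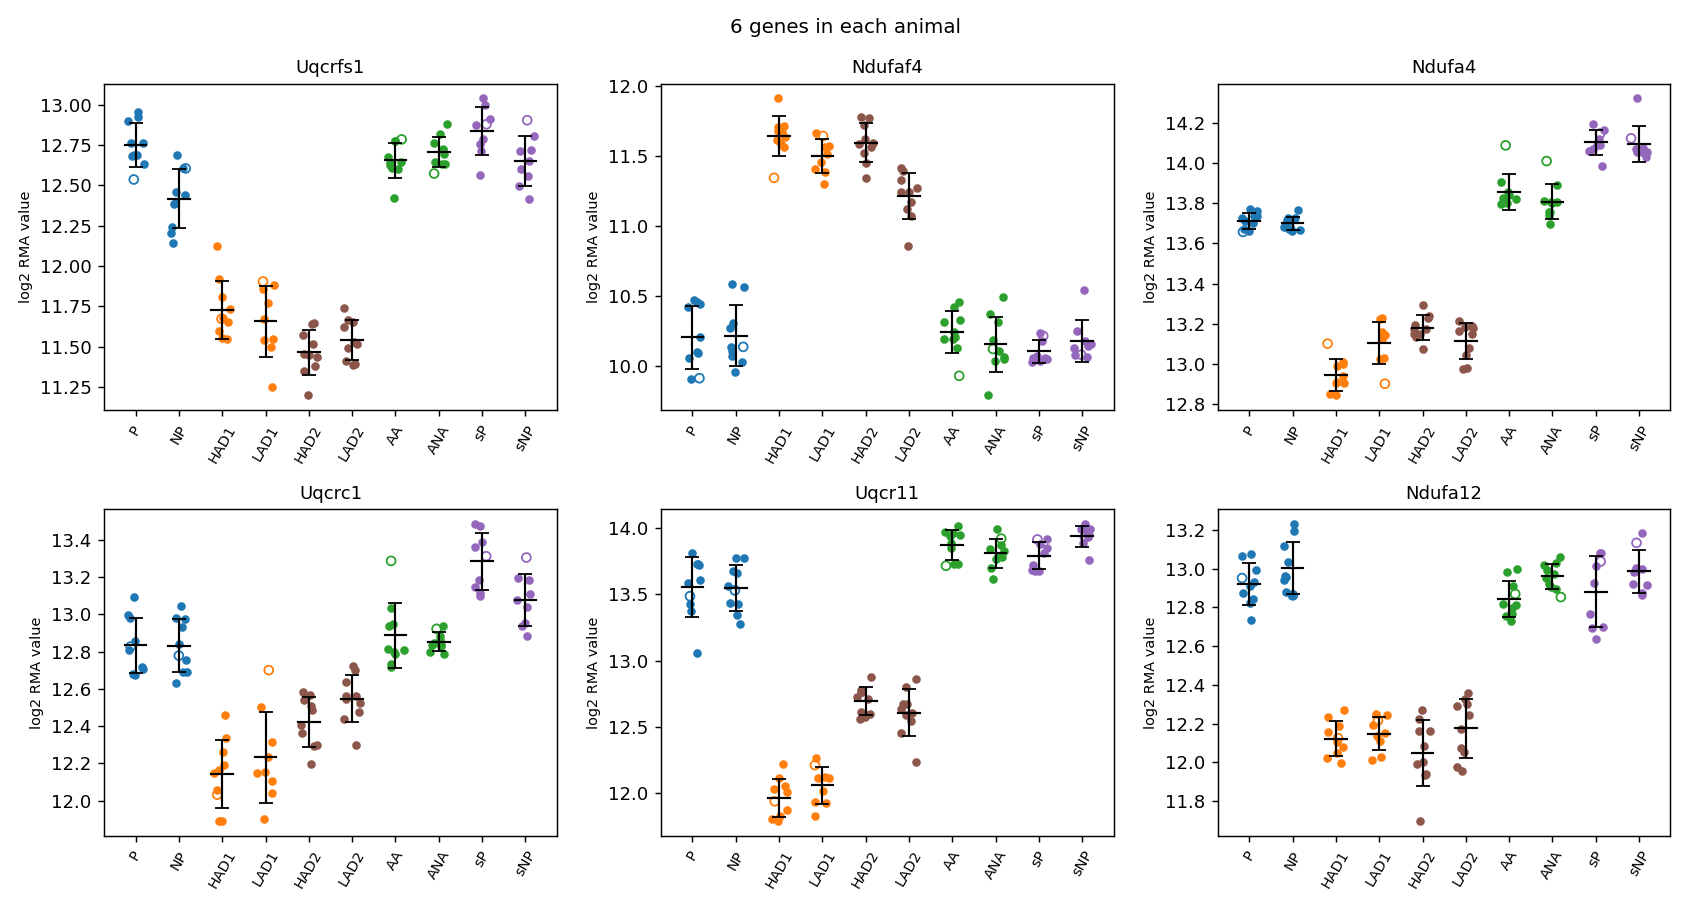
Log2 RMA value of 6 genes in each animal (points), by line, with the mean ± SD of the line in black, open circles for the 8 departing arrays and 1 colour per line pair. P lies above NP for Uqcrfs1, HAD2 above LAD2 for Ndufaf4 and sP above sNP for Uqcrc1, with overlap in each, and the HAD and LAD line means lie above those of the other 6 lines for Ndufaf4 and below them for the other 5 genes.

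Complex IV, the cytochrome c oxidase, had no called subunit among 16 in any pair with all arrays. Cox5a was among the 16 through a probe set with a mean of 8.6. A brighter one (mean 13.55), left out because it also names a provisional locus, was called higher in sP (0.23 ± 0.0733). An unadjusted p under 0.05 was reached by 0 of 16 in P/NP, 4 in HAD1/LAD1, 3 in HAD2/LAD2, 0 in AA/ANA and 3 in sP/sNP. Ndufa4 was called in HAD1/LAD1 without the departing arrays HAD1 28 and LAD1 37. With all arrays its values were 12.85, 12.93 and 13.10 (lowest, median, highest) in HAD1 and 12.90, 13.13 and 13.23 in LAD1. HAD1 28 was the highest of its line and LAD1 37 the lowest of its line. The difference was -0.16 ± 0.0467 (adjusted p = 0.114) with both arrays and -0.20 ± 0.0422 (adjusted p = 0.00653, where 3.98% of all probe sets were called) without them, and it was also called when either array alone was left out. Ndufa4 differed by 0.01 ± 0.0286 in P/NP, 0.06 ± 0.0408 in HAD2/LAD2, 0.05 ± 0.0452 in AA/ANA and 0.01 ± 0.0422 in sP/sNP, and the differences were unequal (interaction adjusted p = 0.00504).

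Cox7c, a small subunit of the membrane part, had a like difference in HAD1/LAD1, -0.15 ± 0.0492 (adjusted p = 0.173), with 11.95 to 12.21 in HAD1 and 12.05 to 12.38 in LAD1. It differed by 0.09 ± 0.0585 in HAD2/LAD2 and by -0.10 ± 0.0381 in sP/sNP (adjusted p = 0.0915), and by 0.01 or less in size in P/NP and AA/ANA. Its interaction was also called (adjusted p = 0.0156). Cox6c, another small subunit, was higher in the high-intake line of all 5 pairs, by 0.01, 0.04, 0.12, 0.06 and 0.05 in P/NP, HAD1/LAD1, HAD2/LAD2, AA/ANA and sP/sNP, and on average by 0.05 ± 0.0163 (adjusted p = 0.0371). That call was lost in 16 of the 97 fits that left out 1 array, with arrays centred on their median, with the marker index of cell types as a covariate and with the 5 line differences as the replicates (adjusted p up to 0.948). RefSeq names pseudogenes of Cox6c. The isoforms of other tissues are dim here: Cox4i2, Cox6a2, Cox6b2, Cox7a1, Cox7b2 and Cox8b had means of 5.21 to 7.42, below the 7.92 that is the median over probe sets. None was called. Cox6b2, known from testis, differed by -0.22 ± 0.0807 in HAD2/LAD2 (adjusted p = 0.145), and Cox7a1 and Cox8b, known from muscle, by 0.34 ± 0.137 (adjusted p = 0.0964) and -0.17 ± 0.113 (adjusted p = 0.316) in sP/sNP.

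Complex V, the ATP synthase with its catalytic head in the matrix and its ring of c subunits in the membrane, had 1 call. Atp5f1a, the alpha subunit of the head, was 13.56, 13.72 and 13.83 (lowest, median, highest) in sP and 13.42, 13.58 and 13.72 in sNP. It was higher in sP, with overlap, by 0.16 ± 0.0523 (1.12-fold, adjusted p = 0.0499). In HAD2/LAD2 and AA/ANA it differed by -0.06 in both (SE 0.0373 and 0.0512), and its interaction was called (adjusted p = 0.0295). Atp5mc3, which encodes the c subunit of the ring, had a like pattern, with 0.16 ± 0.0553 in sP/sNP (adjusted p = 0.0626), -0.06 ± 0.0311 in HAD2/LAD2 (adjusted p = 0.422) and an interaction at an adjusted p of 0.0465. In sP/sNP Atp5mc3 was called in 4 of 12 settings. Over the 15 genes the median difference was 0.02 in P/NP, -0.06 in HAD1/LAD1, -0.034 in HAD2/LAD2, 0.038 in AA/ANA and 0.086 in sP/sNP, and every difference lay between -0.14 (Atp5mpl in HAD1/LAD1) and 0.16. All 15 intervals lay within 0.32 log2 units of 0 in all 5 pairs. Atp5pf, the coupling factor of the stalk, had the highest average (0.04 ± 0.0226, adjusted p = 0.433) and Atp5po, the stalk subunit that confers oligomycin sensitivity, the lowest (-0.04 ± 0.0311, adjusted p = 0.677). Atp5me in P/NP (0.09 ± 0.0391, adjusted p = 0.579) and Atp5f1e in AA/ANA (0.08 ± 0.0383, adjusted p = 0.454) had the smallest p there.

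The 4 remaining genes had no call in the main fits, and Cox7a2l was called in 2 of 12 settings in sP/sNP. Cox7a2l, which helps to join complexes III and IV, differed by 0.17 ± 0.0631 in sP/sNP (adjusted p = 0.0726), and Atp5if1 by 0.06 ± 0.0444 in P/NP and 0.02 ± 0.046 in sP/sNP.

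In sP/sNP cell type markers also differed between the lines. The medium spiny markers were lower in sP (12 of 14 called, median -0.94, animals 10.30 to 12.38 against 11.73 to 12.58 in sNP). For the adjoining pallidum, septum and basal forebrain 9 of 10 markers were higher and 3 were called (median 0.488, animals 8.03 to 9.18 against 7.47 to 8.55). Of the parvalbumin interneuron markers 3 of 4 were called higher (median 0.802, animals 9.43 to 10.46 against 8.69 to 10.03). General neuronal markers were higher for 6 of 7 (2 called higher, 1 called lower, median 0.201). Oligodendrocyte markers were higher for 7 of 7 (1 called, median 0.184). Of the astrocyte markers 2 of 6 were called higher, and of the endothelial markers 2 of 6 were called lower. No marker of microglia, blood cells or choroid plexus was called. In this pair 12.9% of all probe sets were called. The marker index, spiny minus pallidal marker mean, was 2.82 ± 1.3 (SD, n = 9) in sP and 4.27 ± 0.607 (SD, n = 9) in sNP. With this index as a covariate the median of the 86 genes went from 0.086 to -0.018, none of the 4 calls was kept and Ndufa12 alone was called. The index itself differed between the lines, so that line and cell make-up cannot be told apart by this fit. The 4 calls lay between adjusted p of 0.0443 and 0.0499, and 10 of the 18 fits that left out 1 array had no called member (sP 2, 5, 8 or 9, or sNP 1, 3, 5, 6, 7 or 9), while the fit without sP 6 had 17 and that without sNP 4 had 15. No share over all probe sets is given for these 18 fits.

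**Figure D3:**
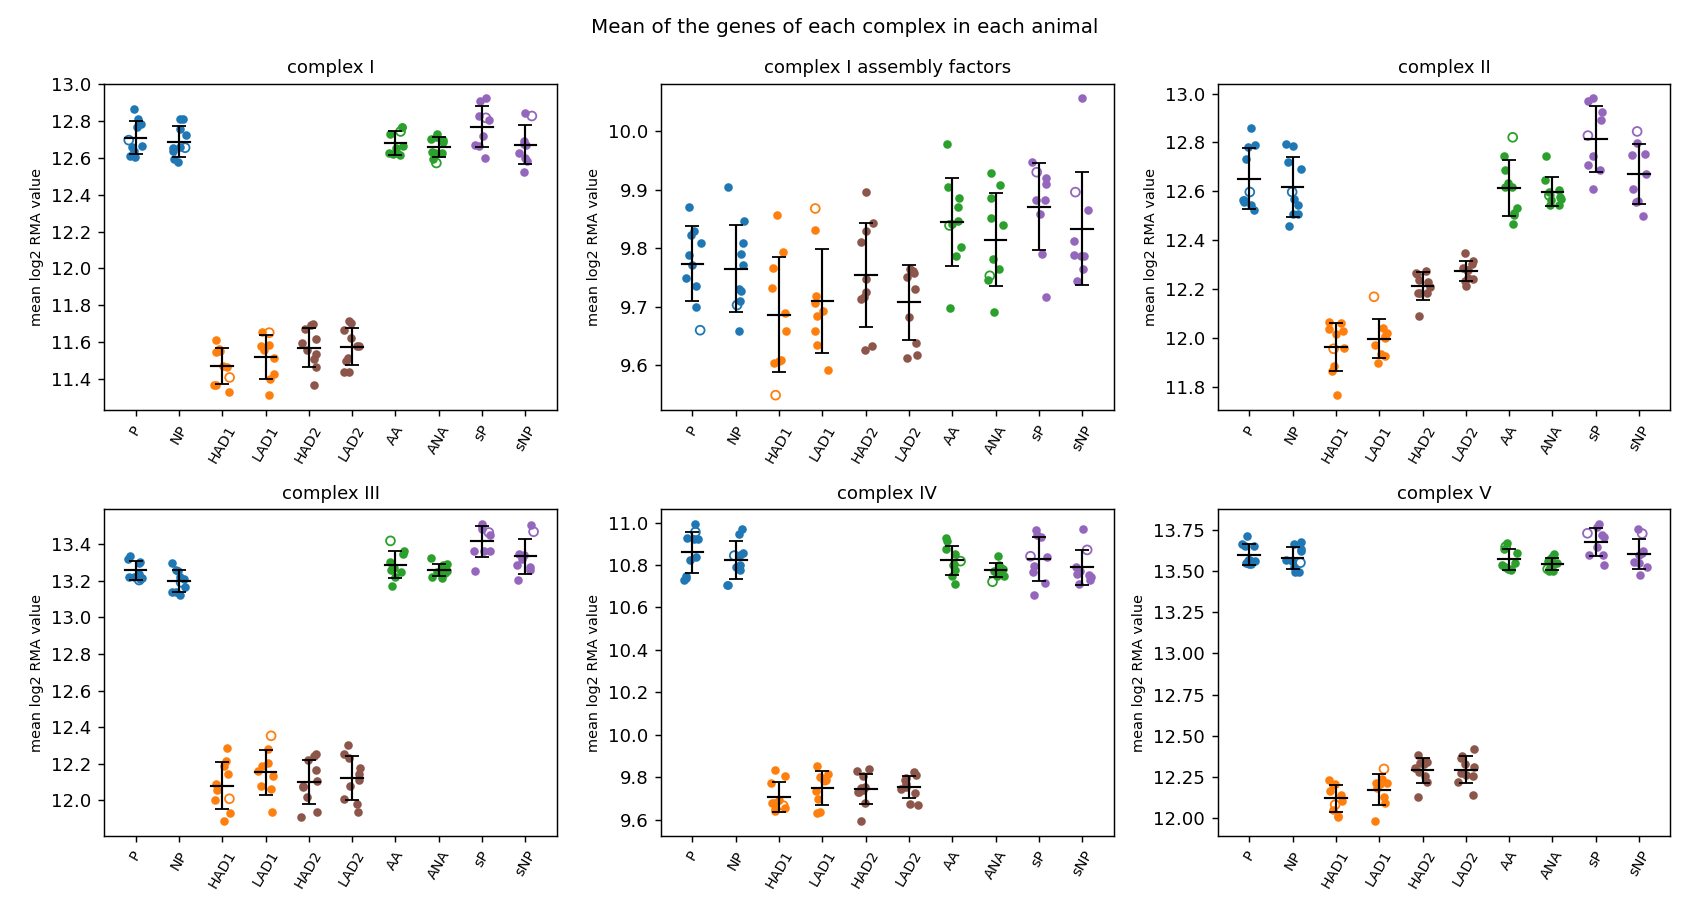
Mean log2 RMA value over the genes of each complex in each animal (points), by line, with the mean ± SD of the line in black and open circles for the 8 departing arrays. The lines of a pair overlap in every panel, and the HAD and LAD lines have lower line means than the others in every panel, by the least for the complex I assembly factors (9.69 to 9.75 against 9.77 to 9.87).

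Between pairs the levels differed far more than within pairs. For 71 of the 86 genes (82.6%) the 4 means of HAD1, LAD1, HAD2 and LAD2 all lay below those of the other 6 lines, which held for 21.9% of the 14217 genes. The opposite held for 2 of 86 genes (2.33%) and 39.3% of all genes. The median difference between the 4 lines and the other 6 was -0.98 over the 86 genes and 0.16 over all genes. By complex it was -1.05 for I, -0.61 for II, -1.07 for III, -1.02 for IV and -1.18 for V, and -0.15 for the assembly factors of complex I. The genes that stood furthest from the rest, chosen after their values were seen, were Atp5mg of the ATP synthase membrane part, with line means of 8.93 to 9.03 in the 4 lines and 13.80 to 13.90 in the other 6, Ndufb8 of the complex I membrane arm, with 6.41 to 7.01 against 11.23 to 11.46, and Cox7b of complex IV, with 10.72 to 10.86 against 13.83 to 14.13. Atp5f1b, the catalytic beta subunit, spanned only 14.07 to 14.24 over the 10 lines, and Ndufaf4 went the other way, with 11.21 to 11.64 against 10.10 to 10.24.

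The same lines stood apart in the Gapdh 3′ to 5′ difference, which had means of 4.71 in HAD1, 4.89 in LAD1, 2.91 in HAD2 and 2.83 in LAD2 and of 0.09 to 0.47 in the other 6 lines. Line pair and sample handling cannot be told apart in this design, so that the levels give no order of the line pairs. Within the 6 lines the means of complex I lay between 12.66 in ANA and 12.77 in sP, with SDs of 0.0551 to 0.113, so that neighbours in this order did not differ beyond their spread.

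**Figure D4:**
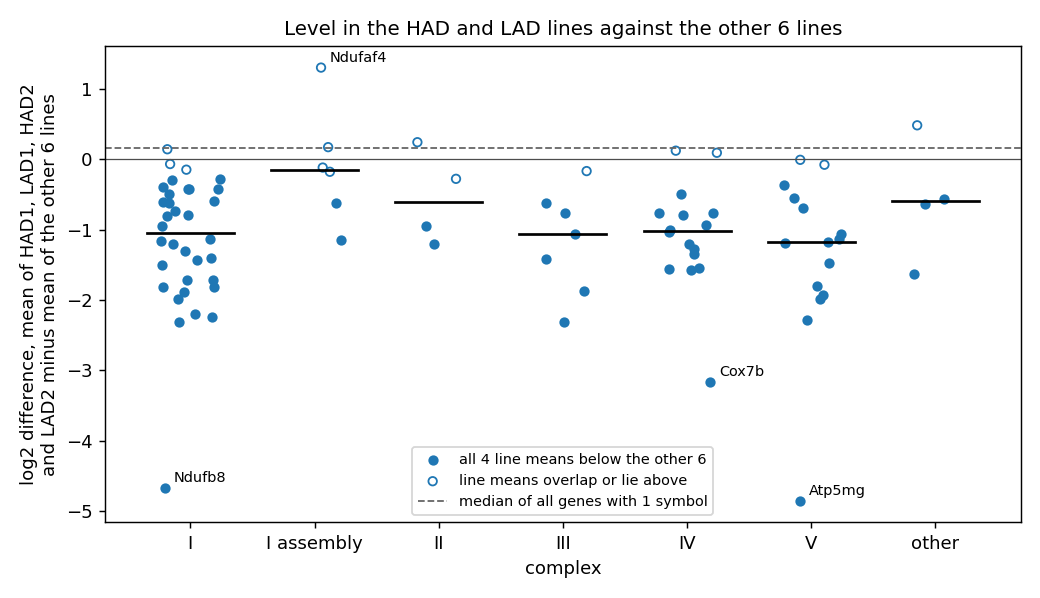
Mean of the HAD1, LAD1, HAD2 and LAD2 line means minus the mean of the other 6 lines for each of the 86 genes (points, log2), by complex, with group medians as black bars and the median of all genes with 1 symbol (0.16) as a dashed line. Filled points mark the 71 genes with all 4 line means below the other 6, and Atp5mg, Ndufb8 and Cox7b lie lowest.

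The interaction test, which asks whether the 5 line differences are equal, called 7 of the 86 genes (11.7% of all probe sets were called): Uqcrfs1, Ndufa4, Ndufaf4, Cox7c, Atp5f1a, Ndufa9 and Atp5mc3, with adjusted p from 0.00276 to 0.0465. Of these, Uqcrfs1, Ndufa4, Ndufaf4 and Cox7c were called in all 97 fits that left out 1 array and under 9 other settings, and the calls of the other 3 were lost with the marker index as a covariate and with arrays centred on their median or 75th percentile. Without the departing arrays the test called all 7 and Ndufs1, Ndufv1 and Uqcrc1, 10 of 86 against 17.5% of all probe sets. The high-intake line had the higher value in all 5 pairs for 3 genes (Cox4i1, Cox6c and Ndufa5), in 4 pairs for 22, in 3 for 38, in 2 for 16, in 1 for 6 and in 0 for Ndufa12. No gene of the 86 was called in more than 1 pair.

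Calls in the related gene lists are to be read beside the share of all probe sets called, which was 1.05% in P/NP, 1.2% in HAD1/LAD1, 4.6% in HAD2/LAD2, 2.35% in AA/ANA and 12.9% in sP/sNP. Among 45 measured assembly factors of all complexes, Ndufaf4 and Cox18 (a membrane insertase for complex IV, -0.24, adjusted p = 0.00279) were called in HAD2/LAD2, Atpaf1 (an ATP synthase assembly factor, 0.36, adjusted p = 0.000321) in AA/ANA, Tmem126b (complex I assembly, -0.21, adjusted p = 0.0459) in HAD1/LAD1, Uqcc1 (complex III assembly, 0.23, adjusted p = 0.0469) in sP/sNP and none in P/NP. Of 15 genes of ubiquinone synthesis and electron transfer flavoproteins, Etfb was lower in P (-0.27, adjusted p = 0.0498) and Coq2, an enzyme of ubiquinone synthesis, lower in sP (-0.42, adjusted p = 0.00333). No gene of this list was called in the other 3 pairs. Of 23 genes of mitochondrial ribosomes and translation, Mrpl15 was higher in P (0.16, adjusted p = 0.0458), Tsfm lower in HAD2 (-0.23, adjusted p = 0.0341), and Mrps2 higher in AA (0.29, adjusted p = 0.00386) and lower in sP (-0.17, adjusted p = 0.0132).

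The tricarboxylic acid cycle, which feeds NADH and succinate to the chain, had 4 of 14 genes called in sP/sNP, where 12.9% of all probe sets were called, and all 4 were higher in sP: citrate synthase Cs (0.19, adjusted p = 0.0348), Idh3g (0.25, adjusted p = 0.0378), Idh2 (0.17, adjusted p = 0.0409) and Idh3b (0.25, adjusted p = 0.0464). All 14 had a positive difference there (median 0.169), and the part of the cell type markers given above in these values was not tested. In HAD2/LAD2 Suclg2, a subunit of succinyl-CoA ligase, was lower in HAD2 (-0.34, adjusted p = 0.000199), and the other 13 genes had no call. The list had no call in P/NP, HAD1/LAD1 and AA/ANA. Of 9 transporters of ATP, ADP and phosphate, Vdac2 (0.16, adjusted p = 0.0448) and the uncoupling protein Ucp2 (0.27, adjusted p = 0.037) were higher in sP, and none was called in the other 4 pairs. Of 18 genes of mitochondrial biogenesis, 1 was called in HAD2/LAD2 (4.6% of all probe sets) and 1 in sP/sNP (12.9%). Both encode PGC-1 coactivators. Ppargc1b was higher in HAD2 (0.63 ± 0.112, adjusted p = 0.000881) and Ppargc1a higher in sP (0.59 ± 0.16, adjusted p = 0.0304). In these pairs 12 and 7 of the 18 genes were higher in the high-intake line, with medians of 0.04 and -0.013. The 86 genes had medians of -0.012 and 0.086. The part of the cell type markers in the differences of Ppargc1b and Ppargc1a was not tested.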

How the data were processed

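The deposited values are log2 RMA signals made by the authors, per the submitters' processing notes, which give no version. Per the labels' protocols, 25 ng of total RNA was amplified in 2 cycles and biotin-labelled. They were used as deposited. Of 31099 probe sets, 57 Affymetrix controls were left out. Symbols came from the platform's annotation, which gave 1 symbol to 20826 probe sets, several to 436 and none to 9780. Among the probe sets with several symbols, 7 name a matching gene together with another gene and were left out of the 86 genes. Of the 86, 9 had more than 1 probe set, all 86 matched RefSeq by gene ID, and RefSeq names a pseudogene for 40. The sources used here name no genome build for the deposited values, and promoter coordinates are those of GRCr8. Each pair was fitted with limma 3.58.1 in R 4.3.3 (lmFit, eBayes, two-sided, Benjamini-Hochberg over 31042 probe sets), and a fit with 1 mean per line gave the average and the interaction F test. Named genes were the called members, the highest and lowest average and the smallest p of each complex, and up to 3 called genes of each related list. Members and lists were chosen with earlier results of these data known. On simulated data true differences of 0.2 were called in 2 to 24% of cases by pair and of 0.5 in 70 to 92%. Where 2 lines share animal numbers, the numbers were not taken as pairs, because the labels do not say that they pair animals. Alternatives changed the arrays, moderation, scaling, filter, probe set, covariates and fit. The number of arrays limits the precision.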

Additional observations from a re-analysis of the deposited data

Results flagged for a closer look

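A few animals lay far from the rest of their line in a complex mean or a named gene. Of 170 such comparisons of 10 lines and 17 items, 11 had an extreme animal past the 95% limit of Dixon's test, and chance flags about 1 in 20. sNP 2 was the high animal of its line for Ndufa4 (14.32, line median 14.06), Cox7c (13.73, median 13.56), Ndufaf4 (10.54, median 10.14) and the mean of the complex I assembly factors (10.06, median 9.79). Ndufa4 was also high in AA 19 (14.09, median 13.82), an array that lay near the other line. Low animals were LAD1 35 for Atp5f1a (13.43, median 13.55), LAD2 18 for Cox7c (11.79, median 12.14), AA 1 for Uqcrfs1 (12.42, median 12.64) and HAD2 5 for the complex II mean (12.09, median 12.22). High animals were LAD2 16 for Cox6c (13.68, median 13.48) and ANA 4 for the complex II mean (12.74, median 12.58).

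The line differences of 7 genes were unequal between the 5 pairs by limma's interaction F test. The adjusted p was 0.00276 for Uqcrfs1, 0.00504 for Ndufa4, 0.0072 for Ndufaf4, 0.0156 for Cox7c, 0.0295 for Atp5f1a, 0.0424 for Ndufa9 and 0.0465 for Atp5mc3.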

How the results depend on the processing

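Counts of called members among the 86 genes moved by more than 1.5 times in the following cases, and no called gene changed the sign of its difference. The median of the 86 genes changed sign in sP/sNP with the marker index (-0.018) and in HAD2/LAD2 without HAD2 5 (0.011) or LAD2 16 (0.003). In P/NP the call of Uqcrfs1 was lost (0 called) with the Gapdh difference as a covariate. In HAD1/LAD1 there was 1 call without the departing arrays and 1 with the Gapdh covariate, and 2 in the fit over all 97 arrays, as in HAD2/LAD2 (2). In sP/sNP there were 1 with arrays centred on their median, 2 on their 75th percentile, 11 among probe sets above the median mean, 1 with the marker index, 0 with the Gapdh covariate and 10 in the fit over all 97 arrays. The average had 4 without the departing arrays, 1 with median centring and 0 with line differences as replicates. The interaction had 4 under median centring, 75th percentile centring and the marker index. Leaving out 1 array gave 1 to 1 calls in P/NP, 0 to 1 in HAD1/LAD1, 1 to 2 in HAD2/LAD2, 0 to 0 in AA/ANA, 0 to 17 in sP/sNP, 1 to 4 for the average and 4 to 9 for the interaction. Counts of the related lists moved without the departing arrays, an alternative chosen after seeing the data. The 45 assembly factors then gave 2 calls in P/NP, 3 in HAD1/LAD1, 5 in AA/ANA and 4 in sP/sNP. The 15 electron carriers gave 2 in HAD1/LAD1 and the 9 transporters 4 in sP/sNP. Of all 31042 probe sets, 661 were called in P/NP in these fits, 3.98% in HAD1/LAD1, 4.44% in AA/ANA and 15% in sP/sNP. For the other settings and the fits that left out 1 array no share over all probe sets is given, so their counts describe stability only. The causes were not tested. The means of complexes moved by less than the spread between animals under all 4 of their alternatives.

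The animal number as a replicate block, possible only where lines share numbers, gave 0 calls in P/NP and 6 in sP/sNP. Deviations of same-numbered animals correlated from -0.59 to 0.77 in P/NP (6 of 10 over 0.1, 4 animals best with their own number) and from -0.22 to 0.56 in sP/sNP (5 of 9 over 0.1, 2 best). These values do not settle whether the numbers mark pairs. The labels do not give them as pairs, so the main fits used no block.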

Other observations

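Among the 7 probe sets left out because they carry the symbol of a matching gene together with another, 1 differed more than any of the 86 genes. This probe set, which carries the symbols Ndufa10 and Ndufa10l1 of complex I, was higher in HAD2 than in LAD2 by 0.87 ± 0.124 (limma, adjusted p = 6.5e-05) and higher in sP than in sNP by 0.53 ± 0.0522 (adjusted p = 4.31e-06). It differed by 0.14 ± 0.0636 in P/NP, 0.23 ± 0.153 in HAD1/LAD1 and 0.15 ± 0.0547 in AA/ANA, without a call. Another, which carries the complex IV symbol Cox5a beside a provisional locus, was higher in sP by 0.23 ± 0.0733 (adjusted p = 0.0474). The genes behind these values cannot be told apart by the annotation.

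The neighbours of Uqcrfs1 and Ndufaf4 were read from the gene order of RefSeq, as values only. Of the 5 nearest measured genes on either side of Uqcrfs1, 0 of 10 were called in P/NP, and the nearest, Dusp22 and Agtr1a, differed by -0.02 ± 0.0373 and 0.07 ± 0.0785. Around Ndufaf4, 1 of 10 was called in HAD2/LAD2, a provisional locus lower in HAD2 (-0.47 ± 0.121, adjusted p = 0.0255). The nearest neighbours, Klhl32 and Ufl1, differed by 0.07 ± 0.161 and 0.05 ± 0.0734.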
